A study of Homo sapiens with 6 samples.

Results

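The genes described here build and turn over the actin cytoskeleton: the cytoplasmic actins ACTB and ACTG1, the filament-severing protein cofilin (CFL1), the monomer-binding proteins profilin (PFN1) and thymosin beta 10 (TMSB10), the Arp2/3 branching subunits ARPC1B, ARPC2 and ARPC3, the capping protein subunit CAPZB and the tropomyosin TPM1. Their spots were taken from the platform annotation by gene ID. Of the 10 genes, 9 had a spot and ARPC3 had none. Together the 9 genes had 32 of the 9169 spots tested, on an array of 9600 spots.

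RNA came from SH-SY5Y cells, an established human neuroblastoma line with features of immature sympathetic neurons. The DN-TRF2 group (3 arrays) carried the vector pIRES2-EGFP with a dominant-negative form of TRF2, a telomere-binding protein, and the GFP control group (3 arrays) carried the vector pEGF-C2 with no insert. Both groups were selected in geneticin at 500 µg/ml and harvested on day 7 after transfection, in 3 independent experiments. The groups differ in plasmid backbone as well as insert, and the 2 cannot be told apart. No source used here states which promoter drives the insert or what share of cells carries it, and the level of TRF2 itself was not analysed here.

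Actin exists as monomers that assemble into filaments. Profilin feeds monomers to growing ends and thymosins hold them in reserve, the Arp2/3 complex starts side branches, capping protein stops growth, cofilin cuts old filaments, and tropomyosins run along filaments and shield them. In neurons these filaments fill growth cones and dendritic spines, while tubulins form the microtubules of the neurite shaft. Transcription of several actin genes depends on serum response factor, which binds a sequence known as the CArG box.

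Promoter sequences were found in RefSeq (GRCh38.p14, 250 bases before to 50 after an annotated start) for 8 of the 10 genes. There were 9 sequences in all because ARPC2 has a pair, and ACTB and ARPC1B were not among them. The TPM1 window (chr15:63048239-63048538) lies inside the gene, so the sequence at the TPM1 gene start was not searched. The second ARPC2 window (chr2:218217147-218217446) lies mostly inside its gene. The 9 sequences were searched on both strands for the CArG box and for GGGCGG, the core of the GC box. The pair shown belongs to the genes whose spots were most uniformly lower on DN-TRF2 arrays, ACTG1 at chr17:81512750-81513049 (minus strand) and CFL1 at chr11:65858131-65858430 (minus strand). Capitals mark every CArG box and every GGGCGG or its complement.
ACTG1: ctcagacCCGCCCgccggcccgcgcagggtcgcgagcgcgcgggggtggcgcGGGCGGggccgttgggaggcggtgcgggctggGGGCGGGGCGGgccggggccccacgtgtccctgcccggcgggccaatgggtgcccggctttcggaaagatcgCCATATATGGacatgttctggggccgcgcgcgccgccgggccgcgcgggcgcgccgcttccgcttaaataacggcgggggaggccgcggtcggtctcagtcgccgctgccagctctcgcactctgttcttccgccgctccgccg
CFL1: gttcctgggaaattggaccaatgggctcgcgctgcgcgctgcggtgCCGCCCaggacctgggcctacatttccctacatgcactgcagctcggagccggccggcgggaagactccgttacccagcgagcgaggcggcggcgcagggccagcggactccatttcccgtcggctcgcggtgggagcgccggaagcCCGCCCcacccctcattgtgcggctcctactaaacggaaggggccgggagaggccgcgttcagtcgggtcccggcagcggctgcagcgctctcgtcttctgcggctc
The ACTG1 window holds 1 CArG box, CCATATATGG, which begins at position -94 relative to the gene start and overlaps no GGGCGG. Of the 9 sequences, this was the 1 with a CArG box, which occurs in 1.29% of 35116 RefSeq promoter windows of this length. GGGCGG was found in all 9, against 45.0% of those windows. TATAAA was found in none of the 9, against 11.5% of the windows. These are matches of letters, not measured binding.

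Each array was hybridized with radiolabelled cDNA, and deposited intensity per spot was used as log2(intensity + 50) after quantile normalization, here called the log2 signal. Differences are DN-TRF2 minus GFP control on that scale, and the errors beside them are limma's moderated standard errors with 3 arrays a group. Median raw intensity was between 517 and 681 on the DN-TRF2 arrays and between 480 and 712 on the GFP control arrays. GFP control 2 stood apart: it correlated with the other controls at 0.954 and 0.963 across spots, while those controls correlated with each other at 0.980 and the DN-TRF2 arrays among themselves at 0.987 to 0.992. Nothing was called over all spots by limma at an adjusted p under 0.05 (0 of 9169, 0%), nor among the 32 spots (0). The number of arrays limits the precision, and the p-values measure only the spread between these samples.

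Signals of markers for the labelled cell type were present. Of 15 listed noradrenergic neuroblastoma markers, 9 were measured at 19 spots, 16 of which lay above the median signal of all spots, and their summed intensity ran from 12797 to 15795 on DN-TRF2 arrays and from 12419 to 16843 on GFP control arrays. Their mean log2 signal was 10.32, 10.31 and 10.36 on the DN-TRF2 arrays and 10.17, 10.26 and 10.30 on the GFP control arrays, without overlap, and 6 of the 9 genes had a higher mean in DN-TRF2. Markers of substrate-adherent, mesenchymal-type cells and stroma, which use actin bundles and tropomyosins heavily, averaged 9.52, 9.61 and 9.59 (log2) on the DN-TRF2 arrays and 9.27, 9.51 and 9.33 on the GFP control arrays. They did not overlap between the groups either, and 8 of 11 measured genes had a higher mean in DN-TRF2. Over all genes 52% had a lower mean. Both separations were narrow: the closest arrays read 10.312 and 10.300 for the noradrenergic list, and 9.523 and 9.511 for the stroma list. The summed intensity of the stroma markers ran from 15405 to 18555 on DN-TRF2 arrays and from 15488 to 16979 on GFP control arrays. Of their 15 spots, 6 lay above the median signal of all spots and 0 lay at or under the stand-in value of 10 on any array. Markers of other cell types also gave signal: 2 of 4 blood and immune spots and 7 of 14 epithelial spots lay above that median. Signal at marker spots thus does not single out the labelled cell type. The part of the noradrenergic or stroma list in the actin values was not tested. In bulk RNA fewer cells of a type and less RNA per cell cannot be told apart.

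Across the 32 spots, 21 had a lower mean in DN-TRF2 and 11 a higher one, with a median difference of -0.089. Over all spots 52.7% were lower and the median was -0.011. The differences ran from -0.34 at a dim ACTB spot to 0.40 at a PFN1 spot. The groups did not overlap at 5 spots, all lower in DN-TRF2 and all of ACTG1 or CFL1, against 4.43% of all spots that separated in that direction; 0 of the 32 separated upward, against 4.28%. An unadjusted p under 0.05 was reached by 1 spot on the lower side (1.1% of all spots) and 0 on the higher side (2.31%). Without GFP control 2 the count of lower spots was 17 of 32 and the median -0.013, while 50.04% of all spots were lower, with a median of -0.00015.

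**Figure D1:**
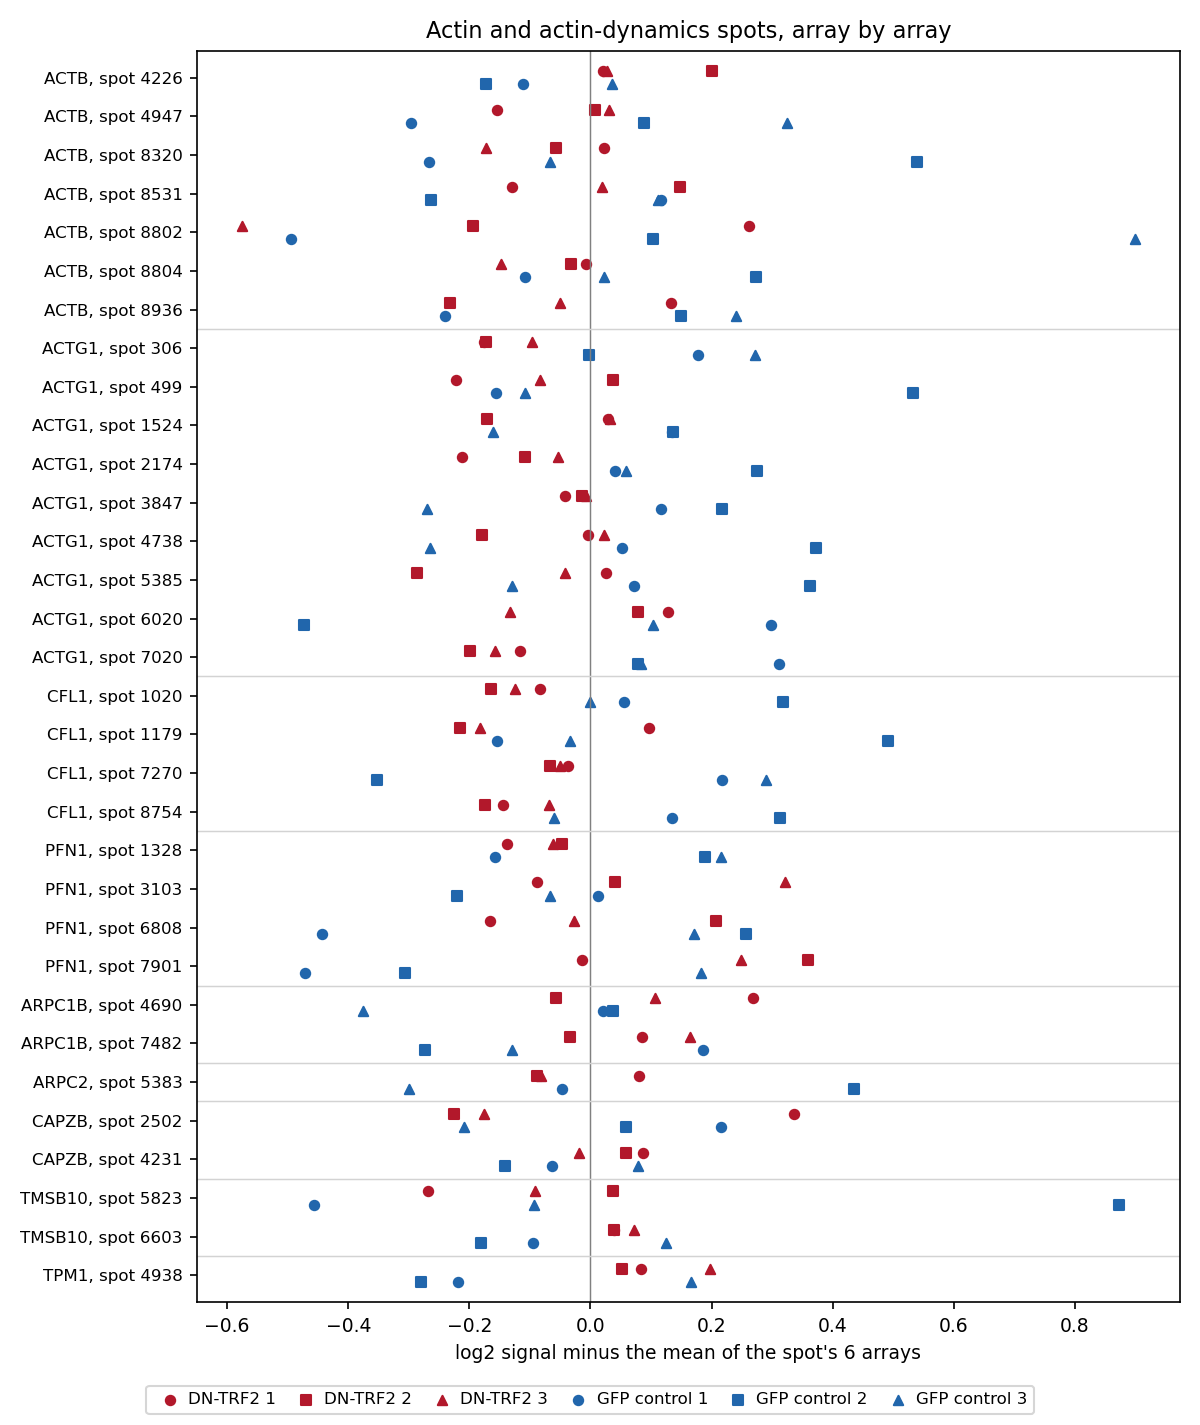
Log2 signal of each of the 32 spots minus the mean of that spot's 6 arrays (x axis), with DN-TRF2 arrays in red above GFP control arrays in blue and 1 marker shape per replicate number. The red points lie left of all blue points at 5 spots, 3 of ACTG1 and 2 of CFL1, and GFP control 2 (blue squares) is the point farthest right at spots such as TMSB10 5823.

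Gamma-actin, encoded by ACTG1 (chr17:81509971-81512799, GRCh38.p14), is a cytoplasmic actin that every non-muscle cell makes beside beta-actin. It had the most spots of the set, 9, of which 8 were lower in DN-TRF2, with a median difference of -0.18. Spot 7020 had log2 signals of 10.37, 10.29 and 10.33 on the DN-TRF2 arrays, against 10.80, 10.57 and 10.57 on the GFP control arrays. All 3 DN-TRF2 arrays lay below all 3 controls there, with a difference of -0.32 ± 0.14 (SE) and a 95% interval from -0.63 to -0.0014. This was the spot counted above at an unadjusted p under 0.05, and limma's adjusted p over all spots was 0.999.

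Spot 306 of ACTG1 read 10.66, 10.66 and 10.74 on the DN-TRF2 arrays and 11.01, 10.83 and 11.11 on the GFP control arrays, a difference of -0.30 ± 0.14. Spot 2174 read 11.10, 11.20 and 11.26 on the DN-TRF2 arrays and 11.35, 11.58 and 11.37 on the GFP control arrays, a difference of -0.25 ± 0.14. At both spots the groups were again separate, and all 3 replicate numbers had the DN-TRF2 array lower. Neither passed limma's test (adjusted p = 0.999 for each).

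The other ACTG1 spots overlapped between the groups. Differences were -0.20 at spot 5385, -0.18 at spot 499, -0.11 at spot 4738, -0.074 at spot 1524 and -0.042 at spot 3847. The exception in sign was spot 6020, at 0.048 ± 0.20, which read 10.19, 10.14 and 9.93 on the DN-TRF2 arrays and 10.36, 9.59 and 10.16 on the GFP control arrays. At that spot GFP control 2 was the lowest of the 6 arrays, while at spot 499 the same array was the highest (11.90). Clones of the same gene thus moved opposite ways on GFP control 2.

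Averaged over its 9 spots, ACTG1 had log2 signals with a mean of 10.81 ± 0.030 on the DN-TRF2 arrays and 10.97 ± 0.11 on the GFP control arrays (SD, n = 3 each). The groups did not overlap, but the margin was narrow: the gene-level difference was -0.16 ± 0.12 with a 95% interval from -0.43 to 0.12 (limma adjusted p = 1.00 over 6255 genes). At the gene level 4.25% of all genes separated downward. By replicate number the median over the 9 spots was -0.16 for number 1, -0.31 for number 2 and 0.025 for number 3, with 9, 8 and 4 spots lower. Without GFP control 2 the gene differed by -0.11 and 6 of 9 spots were lower.

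Among the 59 genes with at least 5 spots, the ACTG1 median was the fifth lowest, in a range of medians from -0.41 to 0.24 centred on -0.040. In the signal range of the ACTG1 spots, 50.8% of all 2310 spots were lower in DN-TRF2 and the median difference was -0.0022. The DN-TRF2 array was lower at all 3 replicate numbers for 3 of the 9 ACTG1 spots, against 13% of the spots in that signal range, and for 5 of the 32 spots of the set, against 14.7% of all spots. The ACTG1 spots also varied together to a degree: over the 6 arrays the median correlation of 36 pairs of spots was 0.41, in a range from -0.87 to 0.93, whereas pairs of an ACTG1 spot with any other spot in that signal range had a median of 0.011. Spots on an array share the same hybridization and normalization, so these correlations are descriptive.

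Beta-actin, encoded by ACTB (chr7:5527148-5530601), is the actin of the leading edge and a common loading reference. It had 7 spots, of which 5 were lower in DN-TRF2, with a median difference of -0.10, and the groups overlapped at every one. The brightest, spot 4947, read 12.53, 12.69 and 12.71 on the DN-TRF2 arrays and 12.38, 12.77 and 13.01 on the GFP control arrays, a difference of -0.078 ± 0.18. The DN-TRF2 arrays fell inside the range of the controls.

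The other bright ACTB spots gave -0.14 ± 0.21 (spot 8320), -0.13 ± 0.15 (spot 8804) and -0.10 ± 0.17 (spot 8936). Spot 8531, of intermediate signal, gave 0.025 ± 0.16. The 4 brightest spots were thus slightly lower and of similar size, each within its error of 0. As a gene, ACTB differed by -0.084 ± 0.14, with a 95% interval from -0.41 to 0.24 and an adjusted p of 1.00 by limma. The sign was not shared across the replicate numbers: the ACTB gene average differed by 0.22 for number 1, -0.13 for number 2 and -0.35 for number 3.

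A pair of ACTB spots was dim and far from the rest. Spot 8802 lay at percentile 4.02 of signal, with log2 signals of 6.65, 6.19 and 5.81 on the DN-TRF2 arrays and 5.89, 6.49 and 7.28 on the GFP control arrays. The arrays of each group scattered widely, and the difference of -0.34 ± 0.33 is the least precise of the 32. Spot 4226 lay at percentile 10.2 and differed by 0.17 ± 0.14. Spots annotated to the same abundant gene thus ranged up to percentile 97.7, so signal was compared within a spot only.

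**Figure D2:**
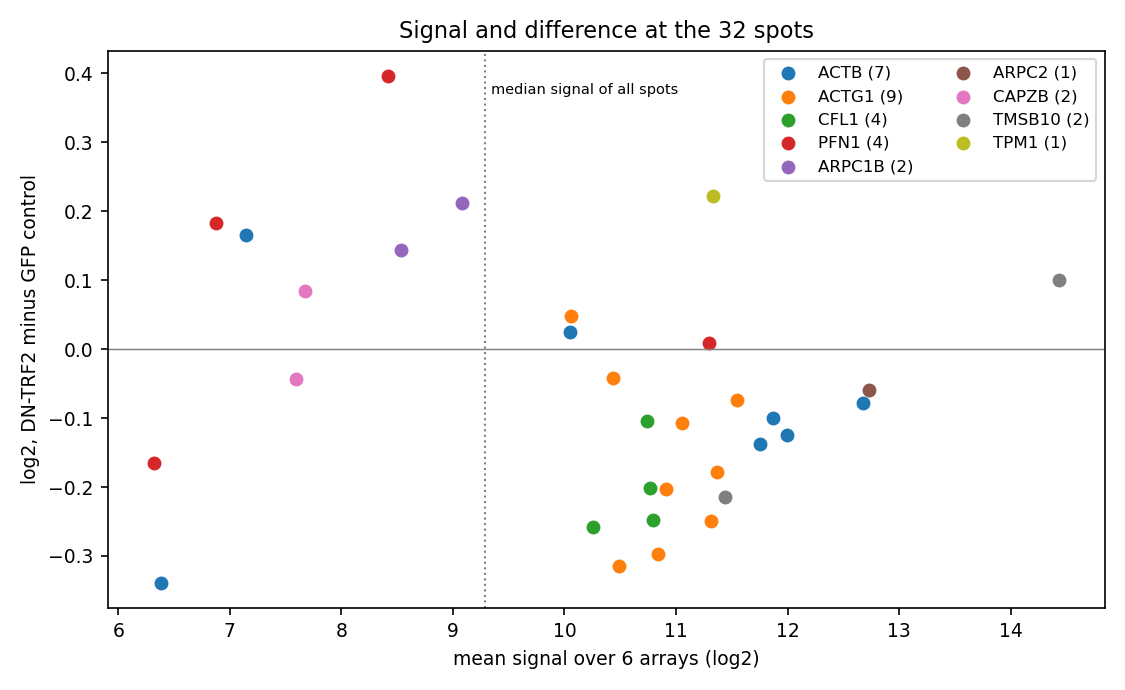
Mean log2 signal over 6 arrays (x axis) against the difference DN-TRF2 minus GFP control (y axis, log2) at the 32 spots, coloured by gene with the number of spots in brackets; the dotted line is the median signal of all spots. Of 23 spots right of the line 18 lie below 0, while of 9 spots left of it 3 do.

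Signal split the set. Among the 23 spots above the median signal of all spots, 18 were lower in DN-TRF2, with a median of -0.11, against 2315 of 4585 spots of that signal over the whole array. Among the 9 dimmer spots, 3 were lower and the median was 0.14, against 2513 of 4584 dim spots overall. The dim group is made of PFN1, ARPC1B, CAPZB and ACTB spots, so that gene and signal cannot be told apart in it.

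Cofilin, encoded by CFL1 (chr11:65854673-65858180), severs filaments and returns monomers to the pool. All 4 CFL1 spots were lower in DN-TRF2, by 0.26 to 0.10, with a median difference of -0.22. Spot 8754 read 10.11, 10.08 and 10.19 on the DN-TRF2 arrays and 10.39, 10.57 and 10.20 on the GFP control arrays, a difference of -0.26 ± 0.15. Spot 1020 read 10.71, 10.63 and 10.67 on the DN-TRF2 arrays and 10.85, 11.11 and 10.79 on the GFP control arrays, a difference of -0.25 ± 0.15. The groups did not overlap at either spot, though at spot 8754 DN-TRF2 3 and GFP control 3 nearly met.

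Spots 1179 and 7270 of CFL1 differed by -0.20 ± 0.19 and -0.10 ± 0.18, and overlapped. GFP control 2 was the highest array at spot 1179 (11.26) and the lowest at spot 7270 (10.39), as it was for the ACTG1 clones. As a gene, CFL1 averaged 10.54 ± 0.057 on the DN-TRF2 arrays and 10.74 ± 0.079 on the GFP control arrays (SD, n = 3 each). Its difference of -0.20 ± 0.12 (95% interval -0.47 to 0.068) was the largest downward one of the 9 genes, was present at all 3 replicate numbers (-0.11, -0.35 and -0.16), and did not pass limma's test (adjusted p = 1.00). It ranged from -0.23 to -0.16 when any 1 array was left out.

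The monomer-binding proteins showed no common direction. PFN1 (chr17:4945652-4948530) differed by 0.40 ± 0.20 at spot 7901, the highest difference of the set, where the DN-TRF2 arrays read 8.40, 8.77 and 8.66 and the GFP control arrays 7.94, 8.11 and 8.60. The groups overlapped through GFP control 3, although all 3 replicate numbers had the DN-TRF2 array higher. With the replicate number as a block it was the 1 spot of the 32 higher at an unadjusted p under 0.05 (3.66% of all spots), with 0 lower (2.08%), and limma's adjusted p was 0.805. The bright PFN1 spot 6808 differed by 0.0096 ± 0.20, and the dim spots 3103 and 1328 by 0.18 ± 0.16 and -0.16 ± 0.15. The 4 PFN1 spots thus disagreed in sign, and the gene average was 0.11 ± 0.15.

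Thymosin beta 10 gave the fourth brightest spot of the array and a second spot that contradicted it in sign. TMSB10 (chr2:84905656-84906671) read 14.48, 14.48 and 14.51 on the DN-TRF2 arrays at spot 6603, and 14.34, 14.26 and 14.56 on the GFP control arrays, a difference of 0.10 ± 0.14. Spot 5823 read 11.17, 11.48 and 11.35 on the DN-TRF2 arrays and 10.98, 12.31 and 11.34 on the GFP control arrays, a difference of -0.21 ± 0.29. The second value depended on single controls: spot 5823 differed by 0.17 without GFP control 2 and by -0.47 without GFP control 1.

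Among the Arp2/3 subunits, both ARPC1B spots were higher in DN-TRF2 and the ARPC2 spot was not. ARPC1B (chr7:99374259-99394816) differed by 0.21 ± 0.17 at spot 4690 and 0.14 ± 0.16 at spot 7482, with overlapping groups at both, and by 0.18 ± 0.14 as a gene. ARPC2 (chr2:218217189-218254348) read 12.81, 12.65 and 12.65 on the DN-TRF2 arrays and 12.69, 13.17 and 12.43 on the GFP control arrays, a difference of -0.060 ± 0.19. The DN-TRF2 arrays lay within the spread of the controls, and without GFP control 2 the difference was 0.14.

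The capping subunit CAPZB (chr1:19338775-19485539) differed by -0.043 ± 0.19 and 0.084 ± 0.14 at its dim spots 2502 and 4231. The tropomyosin TPM1 (chr15:63042747-63071915) had 1 spot, which read 11.41, 11.38 and 11.53 on the DN-TRF2 arrays and 11.11, 11.05 and 11.50 on the GFP control arrays. It was higher in DN-TRF2 by 0.22 ± 0.16 and at all 3 replicate numbers, but overlapped through GFP control 3 and did not pass (limma adjusted p = 0.999). Among spots of above-median signal in the set it had the highest difference. The stroma marker list given above was also higher on the DN-TRF2 arrays, and its part in the TPM1 value was not tested.

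The spread within groups was unequal. The SD was larger among GFP control arrays than among DN-TRF2 arrays at 30 of the 32 spots, with median SDs of 0.10 in DN-TRF2 and 0.24 in GFP control. Over all spots this held for 78.0%, with medians of 0.13 and 0.24.

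The tubulin spots, read on the same arrays, had larger differences than the actin set. The alpha- and beta-tubulin genes had 40 spots of 12 genes, of which 37 were lower in DN-TRF2, against 52.7% of all spots, with a median difference of -0.32 against -0.089 for the 32 actin and actin-dynamics spots. The groups did not overlap at 5 of the 40 tubulin spots, all lower in DN-TRF2, against 4.43% of all spots. The actin set also had 5 such spots, of 32. Median SDs at the tubulin spots were 0.27 in DN-TRF2 and 0.45 in GFP control. The tubulin median was -0.67 without GFP control 2 and -0.13 without DN-TRF2 2. The 2 lower spots of smallest p were of TUBB3 and TUBA1B: TUBB3 (neuronal beta-tubulin) differed by -0.57 ± 0.20 at spot 1068 and TUBA1B (a major alpha-tubulin) by -0.56 ± 0.20 at spot 2089. Among the 3 higher tubulin spots were TUBB4B 3757 at 0.073 ± 0.14 and TUBA1B 6653 at 0.013 ± 0.20. None of the 40 passed limma's test (smallest adjusted p = 0.999; 8 had an unadjusted p under 0.05, all lower, against 1.1% of all spots). With the replicate number as a block 16 of the 40 were lower at an unadjusted p under 0.05, against 2.08% of all spots, and none passed.

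**Figure D3:**
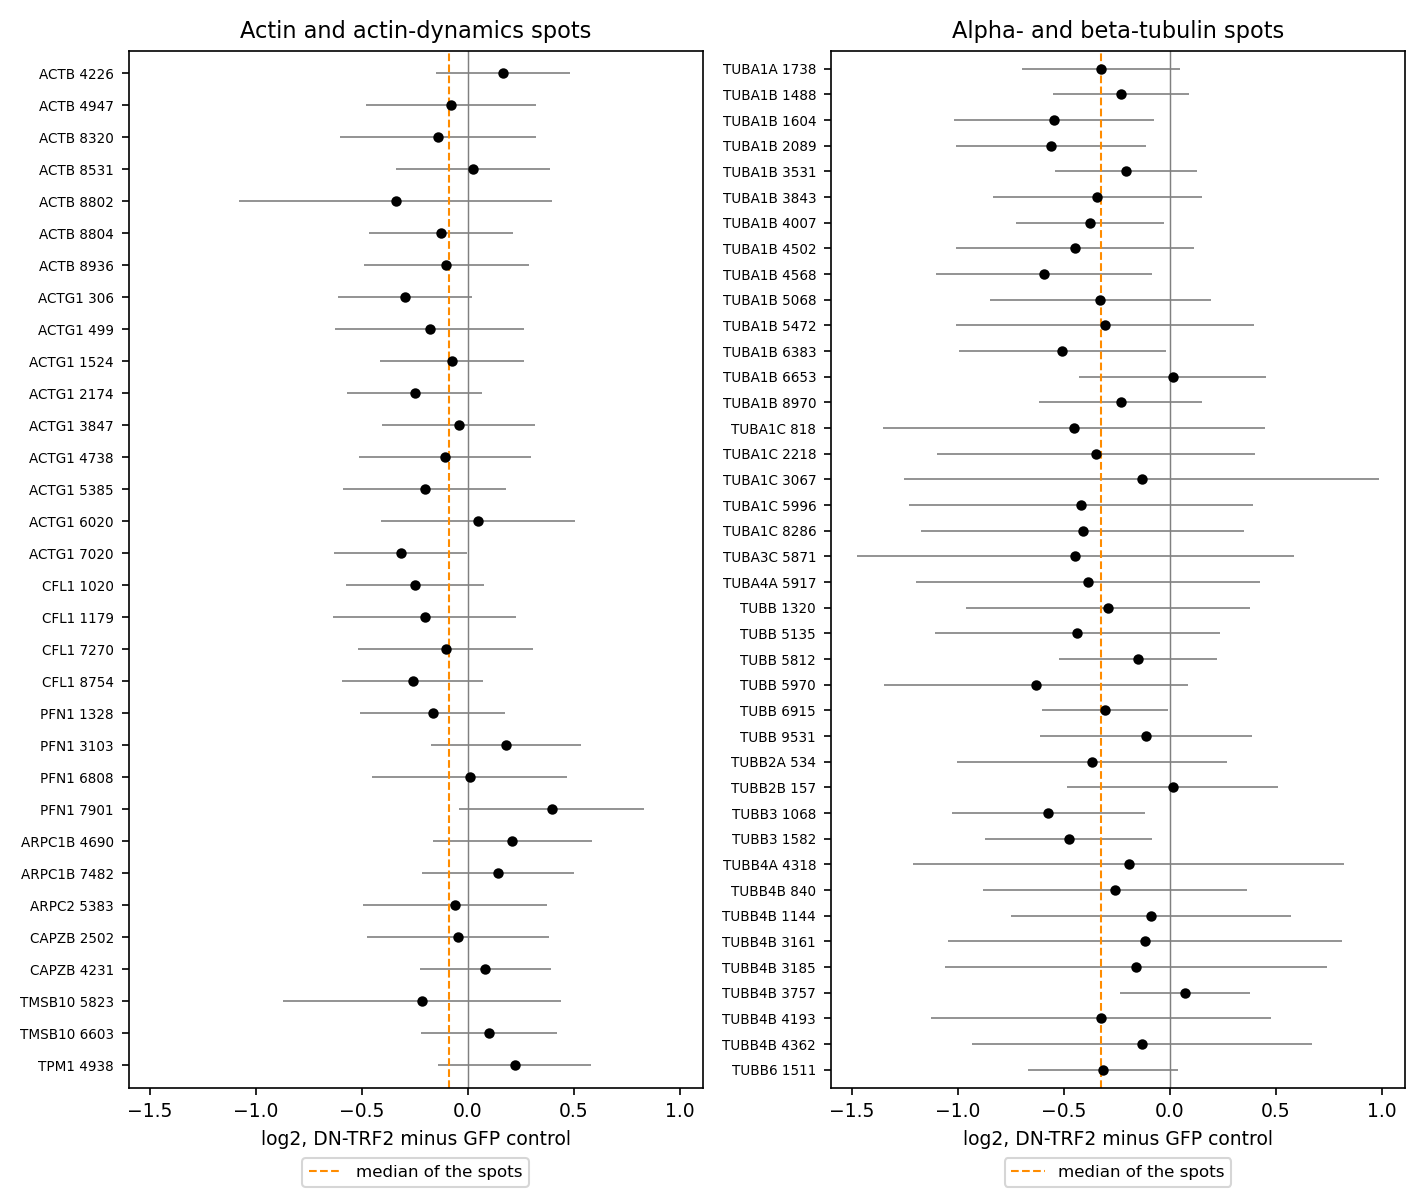
Difference DN-TRF2 minus GFP control (x axis, log2) with limma's 95% interval for the 32 actin and actin-dynamics spots (left) and the 40 tubulin spots (right); numbers after the symbols are spot positions, and the dashed line is each panel's median, -0.089 and -0.32. The tubulin points lie farther left and have wider intervals.

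From array to array the tubulin spots varied more than the actin set. Per spot, the median SD over the 6 arrays was 0.20 for the actin set, 0.44 for the tubulins and 0.21 for all spots. The median deviation of the 32 actin and actin-dynamics spots from their own means was -0.0062, -0.052 and -0.050 on the DN-TRF2 arrays and -0.017, 0.12 and 0.029 on the GFP control arrays, a range of 0.17 over the 6 arrays. For single genes of the set this range was wider: 0.39 for ACTG1, 0.35 for ACTB and 0.48 for CFL1. The median of the 40 tubulin spots was 0.050, -0.43 and -0.053 on the DN-TRF2 arrays and 0.41, -0.36 and 0.48 on the GFP control arrays, a range of 0.91. The tubulins were therefore lowest on both arrays of number 2 and high on the other controls, while the actin values went the other way on GFP control 2.

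The gap between the medians (actin set minus tubulins) was 0.24 with all arrays. It was 0.66 without GFP control 2, 0.067 without GFP control 1, 0.040 without GFP control 3 and 0.064 without DN-TRF2 2. The gap on single arrays was -0.056, 0.37 and 0.0029 in DN-TRF2, and -0.43, 0.48 and -0.45 in GFP control, so the groups overlapped. No test of the gap was made, because the members were chosen with results of these data known. By replicate number the tubulin median was -0.30, -0.15 and -0.55, and that of the 32 spots was 0.059, -0.26 and -0.072.

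**Figure D4:**
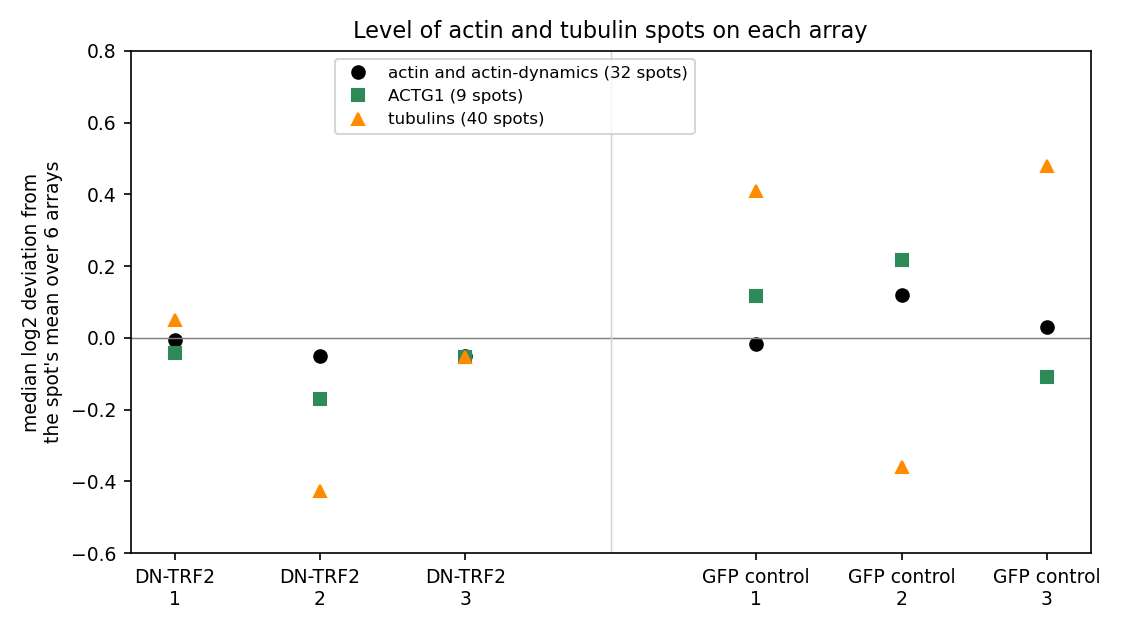
Median deviation (y axis, log2) of the spots of each set from their own mean over 6 arrays, on the 3 DN-TRF2 arrays (left) and the 3 GFP control arrays (right). Circles for the 32 actin and actin-dynamics spots stay between -0.052 and 0.12, squares for the 9 ACTG1 spots run from -0.17 to 0.22, and triangles for the 40 tubulin spots run from -0.43 to 0.48.

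The muscle-type actins, which non-muscle cells make little of and whose coding sequences closely resemble the cytoplasmic ones, had 1 spot each. ACTC1 (cardiac actin) read 9.78, 9.30 and 9.58 on the DN-TRF2 arrays and 10.60, 8.73 and 9.94 on the GFP control arrays, a difference of -0.20 ± 0.40. ACTG2 (enteric smooth muscle actin) read 9.51, 7.95 and 9.23 on the GFP control arrays, with all 3 DN-TRF2 arrays in between, a difference of -0.24 ± 0.36. Both had their highest values on GFP control 1 and 3 and their lowest on GFP control 2, and the tubulins were also high on GFP controls 1 and 3 and low on GFP control 2. ACTA2, of vascular smooth muscle, differed by 0.17 ± 0.17 and ACTA1 by 0.062 ± 0.14. The ACTA2 and ACTA1 spots were bright, at percentiles 97.0 and 97.2 of signal among genes. Each also had its lowest value on GFP control 2. Clones of actin genes can hybridize with RNA of other actins, and whether they did so here was not tested. Of 11 listed muscle markers 3 were measured, with summed intensity from 1677 to 1911 on DN-TRF2 arrays and from 1346 to 2106 on GFP control arrays, and their part in these values was not tested.

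Of the wider actin network, 50 further genes were examined, 26 with a lower and 24 with a higher mean in DN-TRF2 (median -0.0052, against -0.0067 over all 6255 genes, of which 52% were lower). None passed limma's gene-level test (0 of 50; over all genes 0%); 2 were lower and 1 higher at an unadjusted p under 0.05, against 1.07% and 2.49% of all genes. The groups did not overlap for 3 lower and 2 higher genes, against 4.25% and 4.7% of all genes. The share of genes with a lower mean was near the background. The 2 genes lower at limma's unadjusted p under 0.05 were a larger share of the 50 than 1.07%. Counts of 1 to 3 genes are too small to set apart from the background.

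Other Arp2/3 subunits and activators had a higher mean for 8 of 9 genes, with a median of 0.068. This count depended in part on GFP control 2, the lowest array for NCKAP1 (10.06) and WIPF1 (11.46). The DN-TRF2 mean of NCKAP1 (10.70) lay below GFP controls 1 and 3 (10.95 and 10.73). Of the 8 higher genes, ACTR3B (0.0094) and CYFIP2 (0.023) lay close to 0, and the 2 ACTR3B spots differed in sign. ARPC4, the subunit at the core of the complex, had 1 spot that read 9.15, 9.13 and 9.21 on the DN-TRF2 arrays and 8.91, 8.84 and 8.64 on the GFP control arrays. The groups did not overlap, with a difference of 0.37 ± 0.13 (limma adjusted p = 1.00). ARPC5L, a further subunit, differed by 0.23 ± 0.17 over 3 spots and the activator gene WAS by 0.14 ± 0.13. The WAS spot was dim, at percentile 8.12 of signal among genes. ARPC1B had the same sign and ARPC2 did not.

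Factors that cap or elongate filament ends had a lower mean for 7 of 8 genes (median -0.13). For TMOD1 and CAPG this depended on GFP control 2, the highest array for both (9.88 and 8.74). Their DN-TRF2 means (9.44 and 8.20) lay above both other controls. The 3 of smallest p were ENAH at -0.21 ± 0.16, the formin DIAPH1 at -0.19 ± 0.17 and the capping subunit CAPZA2 at -0.14 ± 0.15. ENAH and DIAPH1 promote elongation. The ENAH spot was dim, at percentile 5.96 of signal among genes. None of the 3 separated the groups. Monomer-binding and turnover factors divided evenly, 4 lower and 4 higher. TMSB15A, a thymosin like TMSB10, read lower on every DN-TRF2 array than on every control (-0.36 ± 0.14, limma adjusted p = 1.00). The neuronal profilin PFN2 differed by -0.26 ± 0.17 and the monomer-recycling gene CAP2 by 0.30 ± 0.27, which was -0.019 without GFP control 2.

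Contractile partners also divided evenly, with 5 of 10 lower. MYL12A, a regulatory light chain of non-muscle myosin, was lower without overlap (-0.35 ± 0.13, limma adjusted p = 1.00), while the tropomyosin TPM4 and the heavy chain MYH9 differed by 0.35 ± 0.20 and 0.17 ± 0.16. TPM4 and TPM1 thus had the same sign. Of the crosslinkers and membrane linkers 7 of 11 were lower, and moesin (MSN) did not overlap (-0.29 ± 0.14). LASP1, averaged over 3 spots, did not overlap on the higher side (0.17 ± 0.12). Its single spots differed by 0.19, 0.33 and -0.022, and the groups overlapped at each. Drebrin (DBN1), a filament protein of dendritic spines, differed by -0.15 ± 0.18. None of these passed limma's test (adjusted p = 1.00 for each).

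**Figure D5:**
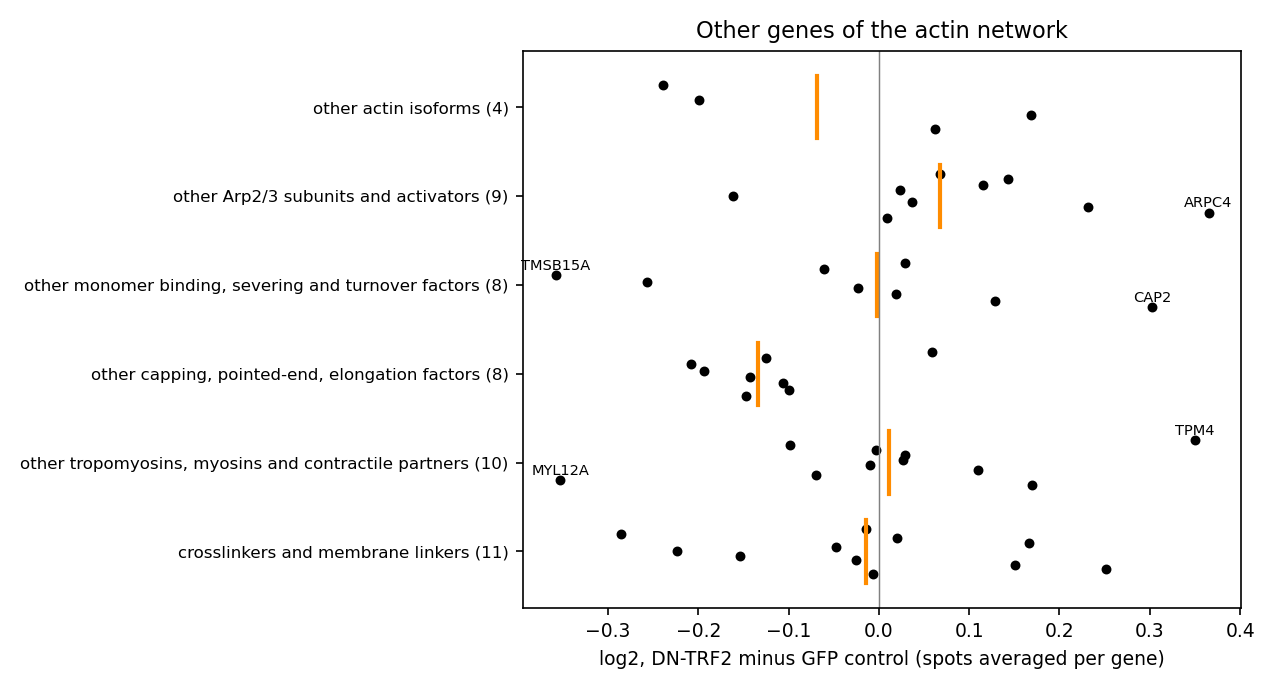
Difference DN-TRF2 minus GFP control (x axis, log2, spots averaged per gene) for 50 further actin-network genes by list (y axis, number of measured genes in brackets). Points are genes, the orange bar is the median of the list, and genes beyond 0.3 either way are named; the points of the Arp2/3 list lie to the right of 0 for 8 of 9 genes and those of the capping and elongation list to the left for 7 of 8.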

How the data were processed

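Intensities were used as the authors deposited them: linear spot intensity from 1 channel, with unequal array medians. About 5 µg of total RNA per array was radiolabelled, per the labels' protocols. No source used here states the image software, background treatment or scaling. A blank was printed at every 25th position (384), and these and 47 further spots at the stand-in of 10 on all 6 arrays were left out. Spots were named by the platform annotation, with 8493 of 8517 annotated spots matched by gene ID to GRCh38.p14, and 8451 tested spots had 1 gene, 21 several and 697 none listed here. A wrong annotation would affect single spots. Arrays were quantile-normalized as log2(intensity + 50). Then limma 3.58.1 (R 4.3.3) tested all spots and, with spots averaged, all named genes, two-sided, Benjamini-Hochberg threshold 0.05. The fit was tested on simulated data. Fold changes of dim spots are understated.

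The members and lists were chosen with earlier results of these data known. Named were all member spots, the 2 tubulin spots of smallest p per direction, and up to 3 genes of smallest p per network list. Deviations from group means correlated at 0.390, 0.296 and 0.246 between same-numbered arrays, so numbers were taken to pair samples; the pairing comes from these values. Alternatives covered the offset, the scaling, the block, array weights, dim spots and each array left out. One gene list of the wider network is not reported here.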

Additional observations from a re-analysis of the deposited data

How the results depend on the processing

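No spot and no gene of the set passed limma's adjusted threshold under any alternative. The median difference of the 32 spots was -0.16 with median centring, which moved the median of all spots to -0.033, and -0.036 with array weights; leaving out 1 array at a time gave -0.15 to -0.013. The gap to the tubulin median ran from 0.040 to 0.66 when 1 array was left out. With the replicate number as a block the median stayed at -0.089 and no adjusted call changed. Some values near 0 changed sign, and the cause was not tested. Median centring gave -0.0054 for ACTB spot 8531, -0.071 for PFN1 spot 6808 and -0.023 for TUBA1B spot 6653. Scaling by z-score gave -0.0084 for PFN1 spot 6808 and 0.010 for the TMSB10 gene. Array weights gave -0.044 for ACTB spot 8531, 0.030, 0.10, 0.077 and -0.12 for ACTG1 1524, 3847, 4738 and 6020, -0.017 for PFN1 spot 6808, 0.10 for ARPC2 spot 5383 (0.099 as a gene), -0.0090 for the CAPZB gene, 0.0017 for the TMSB10 gene and -0.18 for TUBA1B spot 6653.

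Leaving out 1 array at a time gave these ranges across 0. For ACTB they were -0.24 to 0.067 (spot 4947), -0.29 to 0.098 (8320), -0.099 to 0.095 (8531), -0.68 to 0.023 (8802) and -0.20 to 0.0043 (gene). For ACTG1 they were -0.29 to 0.043 (499), -0.19 to 0.056 (3847), -0.27 to 0.052 (4738) and -0.18 to 0.21 (6020). CFL1 spot 7270 ran from -0.31 to 0.015, PFN1 spot 6808 from -0.20 to 0.14, ARPC2 from -0.22 to 0.14, CAPZB spot 2502 from -0.23 to 0.058 (gene -0.081 to 0.074), and TMSB10 spot 5823 from -0.47 to 0.17 (gene -0.19 to 0.099). Of the other genes, ACTA2 ran from -0.0080 to 0.29, ACTG2 from -0.70 to 0.066, ACTC1 from -0.70 to 0.22, CAP2 from -0.019 to 0.59, DBN1 from -0.31 to 0.012 and TUBA1B spot 6653 from -0.18 to 0.22. Other values kept their sign but moved by over 1.5 times, among them the PFN1 gene (0.0014 to 0.19), CFL1 spot 1179 (-0.32 to -0.0059), ACTB spot 8936 (-0.23 to -0.0034), ARPC1B spot 4690 (0.078 to 0.29), TPM1 (0.14 to 0.37), ARPC5L (0.058 to 0.39), ENAH (-0.32 to -0.072), DIAPH1 (-0.29 to -0.047), TPM4 (0.15 to 0.51) and MYH9 (0.068 to 0.32). Signal over background is unknown for these intensities, and 3 arrays a group limit the precision.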
